A study of Xenopus laevis with 11 samples.

Results

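Chromosomes 7L and 7S of Xenopus laevis are a homeologous pair, the copies of one ancestral chromosome that came from each of the parental species of this allotetraploid frog. The members described here are the accessible regions on 7L and 7S whose summit lay more than 5 Mb from the chromosome start and more than 5 Mb from the last summit on that chromosome. There were 3669 of them among 58223 regions in the whole list, 2075 on 7L and 1594 on 7S. Accessible regions were mapped by ATAC-seq in animal caps, the explanted blastula ectoderm. The labels give 11 libraries of strain Xla.NXR-WTNXR and genotype WT, 5 from 3 replicates at stage NF8 and 6 from 4 replicates at stage NF9, since some replicates were sequenced both with and without a selection for fragment size, with 2 caps in each reaction, 1 h of transposition and 12 cycles of amplification. The labels name no transgene and no treatment. The one list used here was called by the authors on all NF9 libraries together, so the values have no spread between replicates, the intervals cover counting error only, and NF8 was not analysed here. The list holds no expression values, so the tissue was not checked against marker RNA.

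In ATAC-seq, the Tn5 transposase inserts adapters where DNA is not wrapped around nucleosomes, so fragments pile up at active promoters and enhancers. After the genome duplication of X. laevis, the L subgenome kept its chromosomes longer, while the S subgenome lost more sequence and more genes. The pair holds several tandem arrays of developmental genes, among them hes5 genes, which encode Notch-responsive repressors, and ventx genes, which encode homeodomain factors downstream of BMP signalling in the ventral embryo.

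The length between the limits was 129.75 Mb on 7L and 103.06 Mb on 7S. The members were 75.4% of the 2752 regions on 7L and 71.4% of the 2232 on 7S. The outermost segments that the limits left out were denser, at 52.2 peaks per Mb at the start and 83.2 at the end of 7L, and 51.0 and 76.6 on 7S. On 7L, the last summit outside the start limit was at 4909842 (4.16-fold over the expected background) and the first inside at 5004203 (13.5-fold). At the far limit of 7L these were 134743924 inside (5.18-fold) and 134988464 outside (7.99-fold). On 7S the summits beside the start limit were 4999209 outside (4.30-fold) and 5001821 inside (3.69-fold), and beside the far limit 107900107 inside (14.1-fold) and 108136233 outside (14.8-fold). Members had a median width of 148 bp on 7L and 149 bp on 7S, and their median summit was covered by 9 fragments on both. Every listed summit had at least 5 fragments. Where no peak is given, none was in the list, and depth, the dropping of reads that fit several places and the removal of peaks over repeats all bear on what the list can hold.

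Between the limits, 7L and 7S carried nearly the same number of accessible regions per length of DNA. The density was 15.99 peaks per Mb on 7L (95% Poisson interval 15.3 to 16.7) and 15.47 on 7S (14.7 to 16.2), a ratio of 1.03 (0.968 to 1.104). 7L was 1.26 times as long and held 1.30 times as many peaks. It also held 1.44 times as many annotated protein-coding genes, 1677 against 1163, which is 12.9 against 11.3 genes per Mb and a ratio of 1.15 (1.06 to 1.24). Per gene, 7L therefore had fewer peaks, 1.24 (1.18 to 1.29) against 1.37 (1.30 to 1.44), and the ratio of 0.903 (0.845 to 0.964) excluded equality by counting error. That interval included 1 when lncRNA genes were added to the genes (0.939, 0.879 to 1.003) and when the count was kept to peaks whose −log10 q reached 10 (0.922, 0.788 to 1.080). Peaks with a summit at most 1 kb from the first or last base of a protein-coding or lncRNA gene were called proximal, since the gene table used here gives no strand. The proximal share was 39.6% on 7L and 39.5% on 7S, a difference of 0.106 percentage points (-3.09 to 3.29).

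Both chromosomes stood at the low end of the genome between the 5 Mb limits. 7L had the fewest peaks per Mb of the 9 L chromosomes, where the others ranged from 16.4 to 24.9, and the fewest per gene, where the others ranged from 1.41 to 1.79. 7S was second lowest of the S chromosomes on both counts, with the others between 14.9 and 20.2 per Mb and between 1.36 and 2.05 per gene. Its place per gene rested on the gene set, since with LOC genes left out 7S had 2.44 peaks per gene and stood 5 of 9. The places per Mb rested on leaving out the chromosome ends, which held 24.6% of the peaks of 7L and 28.6% of those of 7S. On the other chromosomes the ends left out held 6.24% to 27.2%. With no distance limit, 7L (19.69 peaks per Mb) stood 3 of 9 and 7S (19.74) stood 4 of 9. The largest distance was in the share of protein-coding genes with an end peak, a peak summit within 1 kb of either end. That share was 35.7% on 7L (Wilson interval 33.5 to 38.0) and 37.8% on 7S (35.1 to 40.7), against 47.5% of all 30145 genes between the limits of the 18 chromosomes. It ran from 41.6% to 51.3% on the other L chromosomes and from 47.4% to 55.8% on the other S chromosomes, so both members of the pair were lowest in their subgenome. The difference of -2.11 percentage points between 7L and 7S had an interval that included 0 (-5.73 to 1.48). Chromosomes are not replicates, and their differences were not tested.

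**Figure D1:**
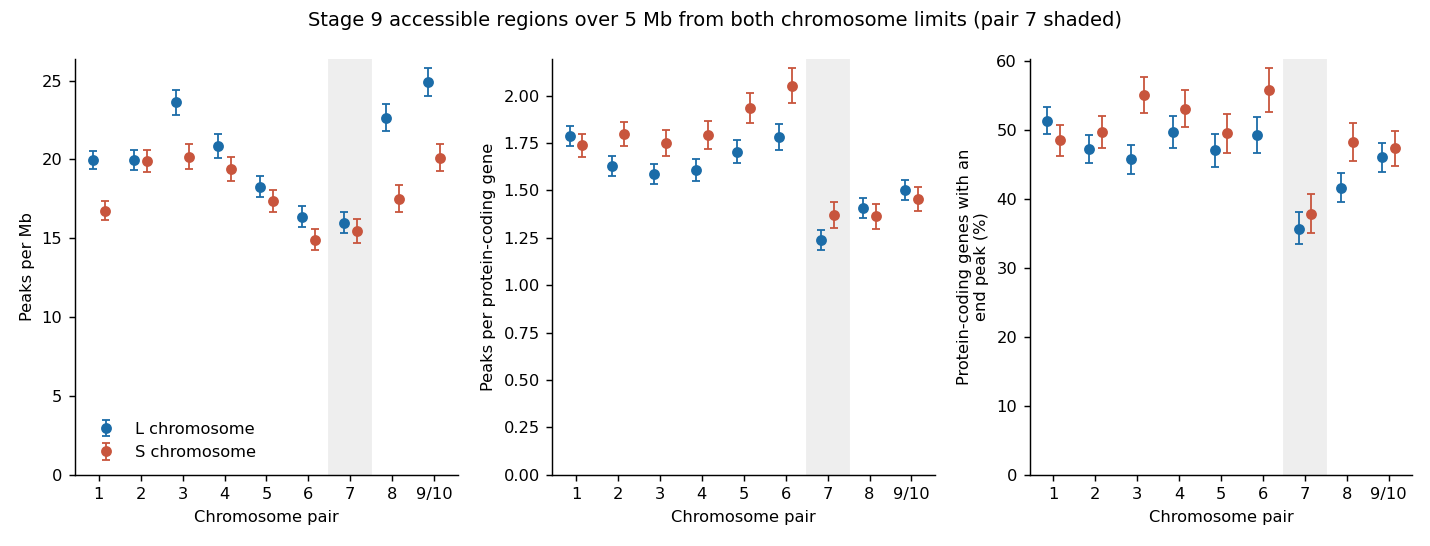
Peaks per Mb, peaks per protein-coding gene and percent of protein-coding genes with a peak within 1 kb of an end, for each L (blue) and S (red) chromosome between the 5 Mb limits, with 95% counting intervals (Poisson for the first 2 panels, Wilson for the last). In the shaded pair, 7L and 7S lie at 15.99 and 15.47 peaks per Mb and at 35.7% and 37.8% of genes, the lowest gene shares of their subgenomes.

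The gene content of the pair differed from the other chromosomes as well. Genes with a LOC symbol, a placeholder given by the annotation to uncharacterised loci, made up 44.2% of the protein-coding genes on 7L and 43.8% on 7S. This was the highest share of either subgenome, with the others at 27.7% to 40.1% on L and 25.8% to 33.7% on S. Few LOC genes had an end peak, 97 of 741 on 7L (13.1%) and 82 of 509 on 7S (16.1%). These shares were again below those of LOC genes elsewhere, 15.9% to 24.5% on the other L and 21.3% to 34.4% on the other S chromosomes.

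Well-annotated genes of the pair were also low. Among homeolog copies, genes named once as .L and once as .S on the pair, 55.8% had an end peak on 7L and 54.5% on 7S. The same class ranged from 62.6% to 67.3% on the other L and from 59.1% to 66.2% on the other S chromosomes. Named genes without a protein-coding namesake of the other suffix, a class that can miss copies under another name, showed the smallest distance. They had an end peak in 185 of 365 cases on 7L (50.7%, others 51.7% to 61.4%) and in 64 of 118 on 7S (54.2%, others 49.3% to 65.0%), so 7S lay within the range of the other chromosomes. Distal peaks followed the same order, since 35.5% of homeolog copies on 7L and 33.5% on 7S had a distal peak within 10 kb of an end, against 43.6% and 39.0% on the other L and S chromosomes. The part of the annotation in the lower share was not tested beyond these classes.

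Density rose and fell along each chromosome by much more than it differed between them. In windows of 5 Mb from the start limit, it ran from 4.80 peaks per Mb (3.08 to 7.14) to 33.4 (28.5 to 38.9) on 7L, and from 4.60 (2.92 to 6.90) to 34.4 (29.5 to 39.9) on 7S. Both chromosomes were sparse in the middle and densest toward the far end. The sparsest window was 55 to 60 Mb on both, and the densest was 115 to 120 Mb on 7L and 95 to 100 Mb on 7S. Peak density went with gene density, with Spearman's rho of 0.506 over the 25 full windows of 7L and 0.740 over the 20 of 7S. These correlations are descriptions over neighbouring windows that share 1 pooled library.

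A few windows departed from gene density in opposite ways. The window from 90 to 95 Mb of 7L held 133 peaks beside only 31 protein-coding genes, 4.29 peaks per gene, and 105 of those peaks were distal. Its neighbour from 85 to 90 Mb had 46 peaks for 68 genes. At the far end of 7L, the window from 125 to 130 Mb held 49 peaks for 94 genes, 81 of them LOC genes, and 15 of the 94 (15.96%) had an end peak. The last window of 7L held 71 peaks for 109 genes, 87 of them LOC genes. The last window of 7S was alike, with 52 peaks for 72 genes and 54 LOC genes.

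**Figure D2:**
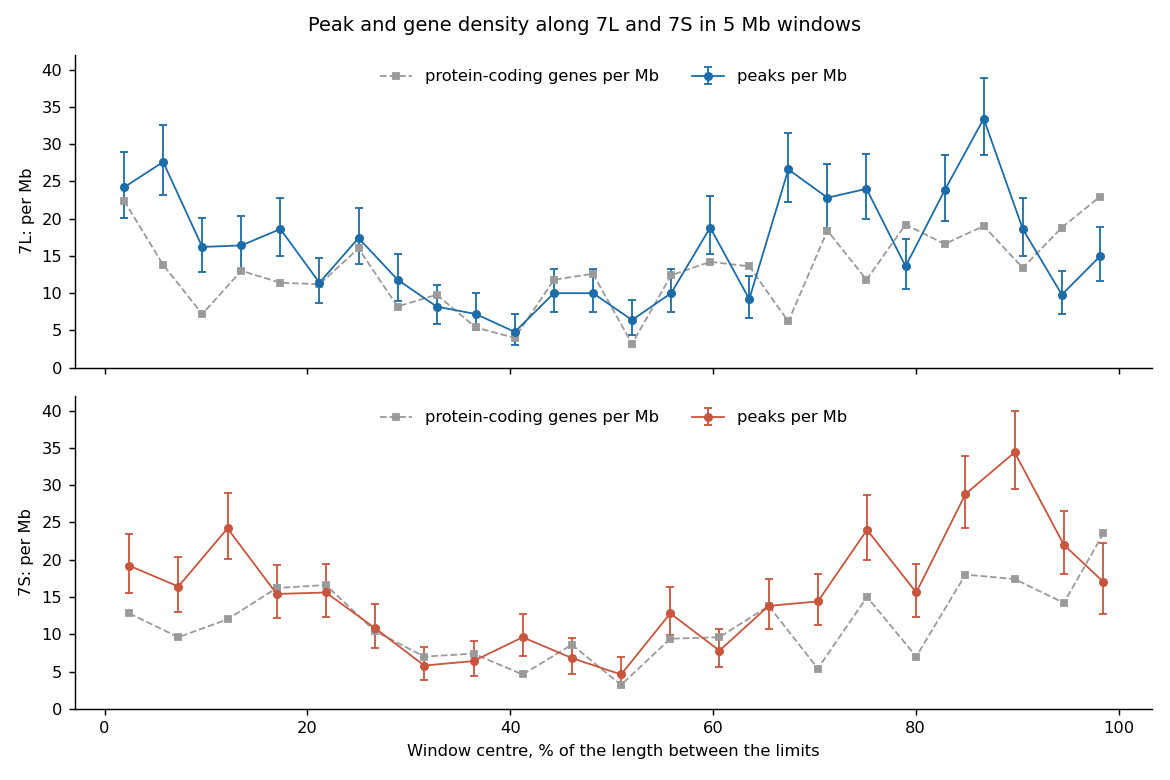
Peaks per Mb with 95% Poisson intervals (solid) and protein-coding genes per Mb (dashed, grey) in windows of 5 Mb along 7L (upper panel) and 7S (lower panel), by relative position between the limits. Both fall to under 5 peaks per Mb in 1 window near the middle, and both peak at over 33 per Mb toward the far end.

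The order of genes made it possible to set 7L and 7S side by side. The pair shared 528 homeolog pairs with both copies between the limits, in nearly the same order on both chromosomes (rho of positions 0.999). Of them, 443 were kept as the longest set in one common order. These were divided into 22 consecutive blocks of 20 pairs. Density in the blocks followed the same course on both chromosomes, with rho of 0.770 over the 22 blocks, which again share the library and the genes that define them. The block from bax, a regulator of apoptosis, to ptprh was the densest on each, at 35.3 peaks per Mb on 7L and 46.6 on 7S. The block from grid1, a delta-type glutamate receptor, to clcf1 was the longest and among the sparsest, at 6.56 and 7.35 peaks per Mb. 21 of the 22 blocks were longer on 7L, and the block from slc37a2 to scn4b was the exception. More peaks lay on the L side in 17 blocks, whereas density was higher on L in 13 and on S in 9.

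The density of 7L was at least 1.5 times that of 7S in 3 of the 22 blocks (13.6%, against 16.2% of 278 blocks over all pairs), and the reverse held in 2 (9.09%, against 2.16%). Against 55 of 256 blocks on the other 8 pairs, the interval of the ratio excluded 1 in 4 of the 22, all among these 5. Those denser on 7L were sdhd to pex10 (141 peaks against 62, ratio 1.54, 1.13 to 2.11) and ptmap12 to hes5.7 (83 against 39, 1.69, 1.14 to 2.54). The third, tmprss4 to timm8b, had 48 peaks against 24 (1.62, 0.974 to 2.77). Those denser on 7S were ccnj to wbp1l (47 against 56, 0.503, 0.334 to 0.755) and rps9 to mag (105 against 102, 0.653, 0.492 to 0.866). The number of peaks was nearly equal in rps9 to mag, and 7S held more in ccnj to wbp1l. In these last 2 blocks the L side was 1.67 (ccnj to wbp1l) and 1.58 (rps9 to mag) times as long. None of the blocks passed 1.5 times in either direction when 40 pairs made a block.

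**Figure D3:**
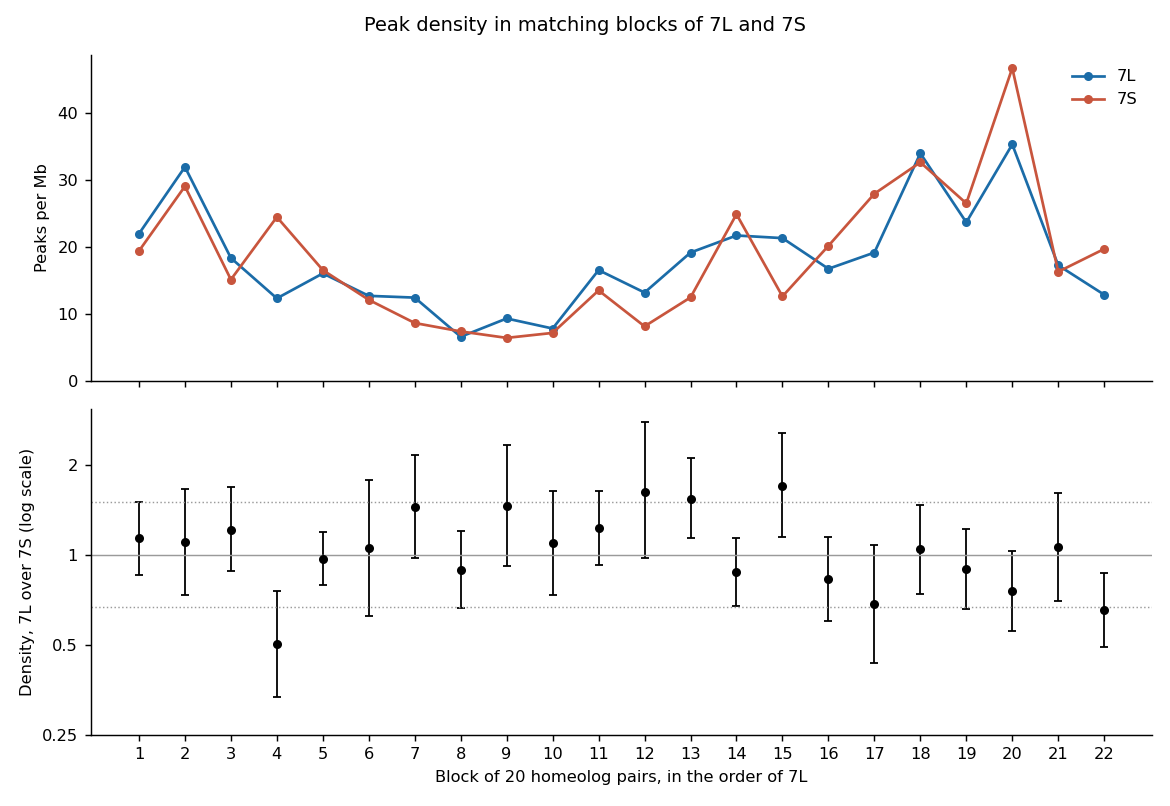
Upper panel, peaks per Mb on 7L (blue) and 7S (red) in 22 blocks of 20 homeolog pairs, numbered in the order of 7L. Lower panel, the ratio of the 2 densities on a log scale with exact 95% intervals and dotted lines at 1.5 times either way. Blocks 13 and 15 lie above 1 and blocks 4 and 22 below 1 with intervals that exclude it.

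In 2 of the blocks denser on 7L, single stretches of DNA held much of the excess of peaks. They were picked after their values were seen and are given as descriptions. In the block from sdhd to pex10, the space between pank4, a pantothenate kinase family gene, and grik5-like.1 measured 1189 kb on 7L (chromosome 7L:92351272 to 93540117) and held 49 peaks, of up to 20.9-fold, with no protein-coding gene in it. An annotated gene that is not protein-coding, LOC121395768, lies in this space and was the nearest gene for 18 peaks of the block. On 7S the same neighbours were 8.71 kb apart (chromosome 7S:78402397 to 78411107), with no peak between them. The genes on the pank4 side are hes5.1 and hes5.2, which on 7L had 4 peaks each within 10 kb and on 7S had 2 and 0.

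In the block from ptmap12 to hes5.7, the space from gpr153 to plekhg5 held 26 peaks over 401 kb on 7L and 3 over 288 kb on 7S. It contains hes2.L, a hairy/enhancer-of-split gene with 10 peaks within 10 kb, whose S copy was not analysed here. In the block from ccnj to wbp1l, 12 of the 56 peaks on 7S were nearest to ventx2.1.S, 7 to ccnj.S and 5 to ventx3.2.S. Of the 47 peaks on 7L, the most nearest to 1 gene were 6, at sh3pxd2a.L, an adaptor gene 197 kb long. Over the 512 spaces between pairs that were neighbours on both chromosomes, 202 held more peaks on 7L, 115 more on 7S and 195 the same number, of which 145 held none on either. The spaces also differed in length, 354 being longer on 7L and 155 on 7S, with medians of 57.9 kb and 41.9 kb. These counts are not corrected for length and were not made on the other chromosome pairs.

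Of these 512 spaces, 84 lay in stretches whose gene order was reversed between the chromosomes. The reversed stretches numbered 8 and held 92 pairs, and 6 of them held at least 6 pairs. They were picked out after the values were seen. The longest, from ubtd1 to ccar1 in the order of 7L, held 38 pairs and 103 peaks over 7.46 Mb on 7L and 80 peaks over 5.48 Mb on 7S, 13.8 and 14.6 per Mb (ratio 0.946, 0.700 to 1.28). The stretch from fam118b to hinfp, 16 pairs, held 32 and 23 peaks (ratio 1.52, 0.862 to 2.72) and was longer on 7S, at 3.18 Mb against 2.91 Mb. The stretch from cdk11b, a cyclin-dependent kinase gene, to b3galt6, 13 pairs, held 28 and 34 peaks (0.722, 0.422 to 1.23). From c8orf76 to ch25h, 9 pairs, there were 10 and 8 peaks, and from hells to tm9sf3, 6 pairs, 18 and 14. Intervals of the density ratio included 1 in each of the stretches named here. Of these, all but the one from c8orf76 to ch25h lay inside the matching block on both chromosomes. The copies of that one lay inside the first block, lpar5 to reep3, on 7S and before it on 7L, so the sides of that block do not hold the same genes.

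At a finer scale, the densest 1 Mb windows of the chromosomes held matching genes. The window from 116 to 117 Mb of 7L had 63 peaks (48.4 to 80.6) and the window from 97 to 98 Mb of 7S had 57 (43.2 to 73.9). Both contain scaf1, irf3, ascl2, bcl2l12, prmt1, akt1s1 and fut2. Next on 7L were 119 to 120 Mb with 49 peaks, around the ferritin heavy chain genes fth1.1.L and fth1.2.L and ruvbl2.L, and 112 to 113 Mb with 48, around the transcriptional repressor genes erf.L and cic.L. Next on 7S were 16 to 17 Mb with 42 peaks, which spans ccnj.S and the ventx array, and 98 to 99 Mb with 41, around tead4.S and kras.S. The median window held 13 peaks on each chromosome, and none of the 129 windows of 7L or the 103 of 7S was without one.

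Gene-rich windows held more peaks per Mb but fewer per gene. They were chosen by gene number, which also divides the peaks, so the lower value per gene is partly set by the choice. The values of the whole chromosomes include these windows. The 23 windows of 1 Mb with at least 20 genes on 7L had 23.1 peaks per Mb and 0.862 per gene, against 15.99 and 1.24 on the whole of 7L, and the 10 such windows of 7S had 23.6 and 0.897, against 15.47 and 1.37. The window with most genes on 7L, 7 to 8 Mb, had 27 peaks for 41 genes, and 108 to 109 Mb and 132 to 133 Mb had 12 and 8 peaks for 40 genes each. In the gene-rich windows of 7L, 181 of 616 genes had an end peak (29.4%), against 39.4% of genes elsewhere on it. In those of 7S, 83 of 263 did (31.6%), against 39.7% elsewhere. Of the genes in these windows, 333 on 7L and 143 on 7S had a LOC symbol.

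The longest stretches without a peak were shorter than on the other chromosomes, although more of the sequence lay in long gaps than on most. On 7L they were 1030 kb with 13 protein-coding genes, each a LOC gene, 936 kb over sfrp5.L, a secreted Wnt antagonist, and golga7b.L, and 851 kb over grid1.L and wapl.L. On 7S they were 927 kb over sik3.S and the apolipoprotein genes apoa1.S, apoa4.S and apoa5.S, 870 kb over ret.S, a receptor tyrosine kinase of neural crest and kidney, and rasgef1a.S, and 834 kb over grid1.S. grid1 was thus in one of the 3 longest gaps on both. Gaps of at least 500 kb took up 16.1% of 7L and 18.1% of 7S, where the other chromosomes ranged from 7.43% to 19.1%.

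The strongest regions sat at gene ends, and kmt5c was among them at both copies. The 10 members of highest fold enrichment had summits between 1 and 740 bp from the nearest annotated gene end. The highest, 29.1-fold with 59 fragments (44.9 to 76.1), was at chromosome 7S:69276861 to 69277051, 77 bp inside the lncRNA gene LOC108705688. Next were LOC108705384 on 7S (25.2-fold) and per3.L, a circadian clock gene, on 7L (25.0-fold), with 40 fragments each (28.6 to 54.5). Their intervals overlap that of the first, so the order among them is not resolved.

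kmt5c, a histone H4 lysine methyltransferase gene, had members in the top 10 at both copies. Its peak was 24.8-fold with 40 fragments at chromosome 7L:120145679 to 120146082, and 21.5-fold with 37 fragments at chromosome 7S:100095219 to 100095700. The other genes of the top 10 were lsr.S, a tricellular junction gene (24.0-fold), hes5.8.L (23.8-fold), LOC108697391 (22.8-fold), ptmap12.L (21.9-fold) and the GTPase gene kras.L (21.5-fold). The strongest peak within 10 kb of the S copy was 17.9-fold at per3, 17.0-fold at ptmap12, 16.6-fold at kras and 10.7-fold at hes5.8.

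Homeolog copies mostly had the same state. Of the 528 pairs, 241 had an end peak at both copies (45.6%, against 52.4% of 6793 pairs over the genome) and 188 at neither (35.6%, against 27.7%), together 81.25% (Wilson interval 77.7 to 84.3). The share with neither was the highest of the 9 chromosome pairs, since the others ranged from 24.5% to 28.7%. Only the L copy had an end peak in 52 pairs (9.85%, against 11.2%) and only the S copy in 47 (8.90%, against 8.64%). The difference of 5 pairs had an interval of -14.3 to 23.9, so a lean of end peaks toward either subgenome was not detectable. Within 50 kb, the mean number of distal peaks was 2.21 at L copies and 2.04 at S copies, a difference of 0.172 (-0.0339 to 0.379, an interval over gene pairs, which are not independent replicates).

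Counted within 10 kb of the gene ends, the copies had the same number of peaks in 230 pairs (43.6%), more at L in 164 and more at S in 134. Equal numbers ranged from 29.5% to 36.5% of pairs on the other chromosome pairs, but 116 pairs here (22.0%) were equal because neither copy had a peak within 10 kb, against 12.7% to 17.2% elsewhere. The counts went together, with rho of 0.629 over all 528 pairs, a description over genes of which neighbours can share peaks. The copies differed by 4 or more peaks in 34 pairs (6.44%, against 7.26%).

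The largest excess at an L copy was at hes3, with 10 peaks within 10 kb at hes3.L (chromosome 7L:103294254 to 103296435) and 2 at hes3.S (chromosome 7S:86351985 to 86354053). hes4 had 11 against 5, fth1.1, a ferritin heavy chain gene for iron storage, 7 against 1, and rcn3, which encodes a calcium-binding protein of the endoplasmic reticulum, 6 against 0. For hes4 the copies had 3 end peaks each and were alike in strength, at most 14.6-fold at L and 14.8-fold at S, so the excess lay outside the 1 kb windows. The mitotic kinesin gene kif11 had 6 against 1, the homeobox gene nkx6-2 and phldb3 7 against 2 each, and ccdc155l 5 against 0. kif11 kept a strong end peak at the sparser copy, 11.7-fold at S against 8.57-fold at L.

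The largest excess at an S copy was at ventx2.1, with 13 peaks at ventx2.1.S (chromosome 7S:16926730 to 16928499), 5 of them within 1 kb, and 3 at ventx2.1.L (chromosome 7L:21805591 to 21807431), 1 of them within 1 kb. The neighbouring ventx1.1 had 9 against 4, and ventx2.2, a gene of the same array, 6 against 3. The members of the array lie close together, so a peak can be counted for more than 1 of them. Within 10 kb, ventx3.2 and ventx1.2 did not share the excess, with 1 and 0 peaks at either copy. Distal peaks within 50 kb were 2 at L and 10 at S for ventx3.2, and 6 and 14 for ventx1.2. Windows of that size reach other members of the array. The cyclin gene ccnj had 7 at S against 2 at L, ccdc106 and kazn 5 against 0, the adhesion gene cadm4 5 against 1, b3galt6, which builds the linker of glycosaminoglycans, 6 against 2, and phf13, which encodes a chromatin-binding PHD finger protein, 11 against 7. At cadm4 the strongest peak was nearly equal, 15.4-fold at S and 16.5-fold at L. The annotated interval of kazn was 349342 bp at L and 147512 bp at S, so its end windows may not cover matching sequence. kazn.L was the nearest gene for 9 peaks of its block. Distal peaks within 50 kb of the kazn ends numbered 5 at L and 3 at S.

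Other pairs were rich in peaks on both chromosomes. bcl2l12 had 14 at L and 15 at S and its neighbour prmt1, the main protein arginine methyltransferase, 13 at each, and these are largely the same peaks, of which the strongest lay within 86 bp of prmt1 (21.0-fold on 7L, 15.8-fold on 7S). The hes5 array followed with 8 and 7 at hes5.8 and 6 and 6 at hes5.7. Within that array hes5.4 was without a peak within 10 kb on either chromosome, and hes5.3 had 4 at L and 0 at S. The respiratory chain gene ndufa4 had 7 and 7, the Hippo pathway factor tead4 6 and 8 and the ETS repressor erf 7 and 6. The widest member of the pair, 2470 bp at chromosome 7L:104205187 to 104207656, lay over the start of the phf13.L interval.

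**Figure D4:**
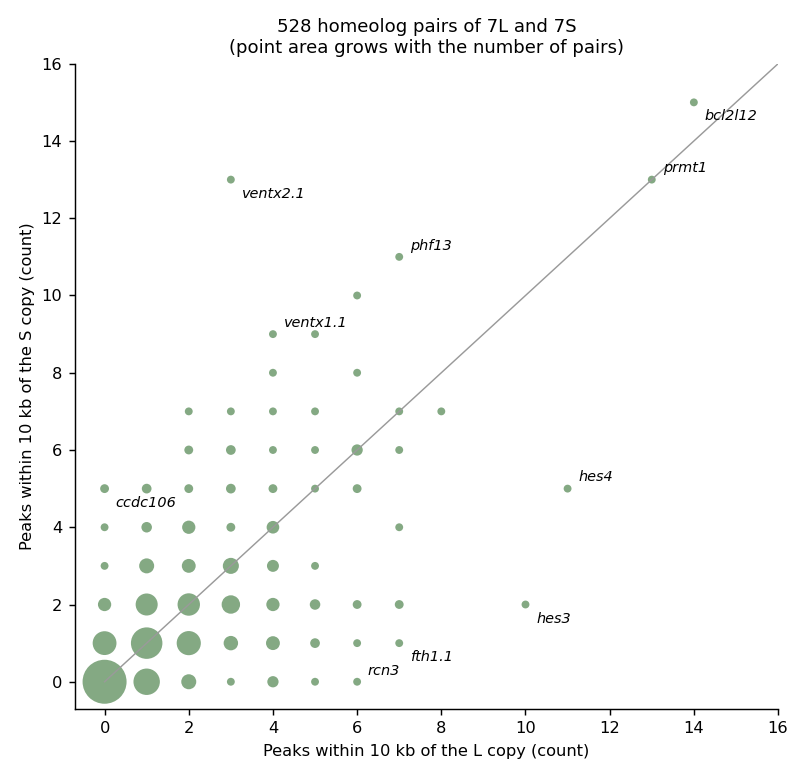
Peaks within 10 kb of the L copy (x axis) and of the S copy (y axis) for the 528 homeolog pairs, with larger points for more pairs and a line where the counts are equal. Most pairs lie near the line, 116 of them at 0 on both axes, while ventx2.1 (3 and 13) and hes3 (10 and 2) stand farthest from it.

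Genes of different function on the pair differed in where their peaks lay. All 2840 protein-coding genes of 7L and 7S between the limits had an end peak in 36.6% and a distal peak within 10 kb in 25.7%, against 47.5% and 33.2% over the 18 chromosomes. These shares include LOC genes, whereas the lists hold named genes. Protein-coding genes without a LOC symbol had an end peak in 53.6% on 7L and 54.7% on 7S. The lists below were set on symbols known to lie on this pair, and no set test was made. Most genes of the cell cycle, RNA processing, ribosomal, mitochondrial and zinc finger lists had end peaks, while distal peaks varied from list to list. Of 23 genes for cell cycle and DNA replication, 22 had an end peak, including cdk1, bub3, mki67 and chek1 at both copies, and 5 a distal peak, with cdk11b.S the exception at 0. Splicing and RNA processing genes had end peaks in 16 of 17, with supv3l1.S the exception, and distal peaks in 9 (52.9%). Ribosomal protein genes had end peaks in 14 of 16, with rps24.L and rps9.L the exceptions, and distal peaks in 3. For genes of mitochondrial energy and translation these were 19 and 5 of 23, and for zinc finger genes named znf or zbtb 23 and 13 of 27 (48.1% with a distal peak). On the other chromosomes, end-peak shares were also high in these lists. They ran from 73.2% for the zinc finger genes to 84.2% for splicing and RNA processing, with cell cycle genes at 78.3%. Distal shares there were 47.8% for cell cycle and 36.8% for splicing and RNA processing, the opposite order to the pair. They were 36.9% for ribosomal protein, 37.9% for mitochondrial and 44.7% for zinc finger genes. With so few genes per list on the pair, differences in distal share between these lists were not resolved.

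Taken as whole lists, developmental transcription factors of the pair had distal peaks at least as often as end peaks. The lists hold the ventx and hes5 arrays, whose members lie close together, so a distal peak can be counted for several copies. Outside the ventx array, homeobox copies had end peaks slightly more often than distal peaks. Outside the hes5 array, the other factors still had distal peaks slightly more often. Of 33 homeobox and paired-box copies, 19 had an end peak (57.6%) and 20 a distal peak (60.6%). The counts within 10 kb were 6 on 7L and 5 on 7S for nkx2-3, a heart and gut factor, 6 and 5 for hhex, an anterior endoderm factor, and 7 for pax2.L, a kidney and midbrain factor. lbx1 and pknox2 had none at either copy, and bsx had 2 at L and 0 at S. Of 45 other developmental transcription factor copies, 21 had an end peak (46.7%) and 28 a distal peak (62.2%), with most at egr2.L, a hindbrain factor, 11 peaks of which 4 lay within 1 kb. The order was the opposite for the 27 copies of this list on the other chromosomes, 24 with an end peak (88.9%) and 21 with a distal peak (77.8%). Only 2 homeobox copies lay there, 0 with an end peak and 2 with a distal peak. This list holds the hes genes given above. casz1 and zbtb16 had end peaks at both copies, 3 and 2 at each of these genes, whereas foxi2 had no peak within 10 kb at either.

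Signalling genes had peaks of both kinds. Of 35 copies of secreted signals, receptors and transducers, 24 had an end peak and 20 a distal peak. The fibroblast growth factor gene fgf8 and the fibroblast growth factor receptor gene fgfr2 had 6 peaks at each of their copies. cyp26a1, a retinoic acid degrading enzyme, had 6 at L and 10 at S. dkk1, a Wnt antagonist, had 4 at L, 2 of them within 1 kb, and 2 at S, both distal. The Wnt antagonist sfrp5 had none at either copy, in a gap on 7L as given above, and nodal had 0 at L and 1 at S. Cytochrome P450 and glutathione transferase genes had end peaks in 7 of 9, of which 4 are the cyp26 copies counted already. The share was 31.9% of 69 copies on the other chromosomes.

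Ion channel and muscle genes had few end peaks, while their distal shares were close to that of all genes of the pair (25.7%), LOC genes included. Homeolog copies had higher distal shares, 35.5% on 7L and 33.5% on 7S. Of 39 copies of ion channel and neurotransmitter receptor genes, 3 had an end peak (7.69%), among them kcnab2.L and scn4b.S, and 8 a distal peak (20.5%). The same kind of gene had an end peak in 29.95% of 207 copies on the other chromosomes. Of 16 muscle structure copies only vcl.S, vinculin, which many cell types use at adhesion sites, had an end peak, and 4 had a distal one. On the other chromosomes 3 of 12 copies of this list had an end peak. Of 20 lipoprotein and lipid handling copies 6 had an end peak (30%) and 4 a distal one. The end-peak share lay below that of all genes of the pair, LOC genes included (36.6%). It lay further below that of genes without a LOC symbol, 53.6% on 7L and 54.7% on 7S. The lipid copies with an end peak were lipa.L, pafah1b2.L and both copies of sc5d and lipe, and none of the 10 apolipoprotein copies. Solute carriers had an end peak in 17 of 30, against 50.4% of 415 copies on the other chromosomes. Ubiquitin and proteasome genes had one in 13 of 19 (77.2% of 228 elsewhere). Kinase genes named map, cdk, cam or stk had one in 8 of 9 (71.4% of 133 elsewhere). The cdk1, cdk11b and mapk8 copies among these kinases were counted already in the lists above.

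**Figure D5:**
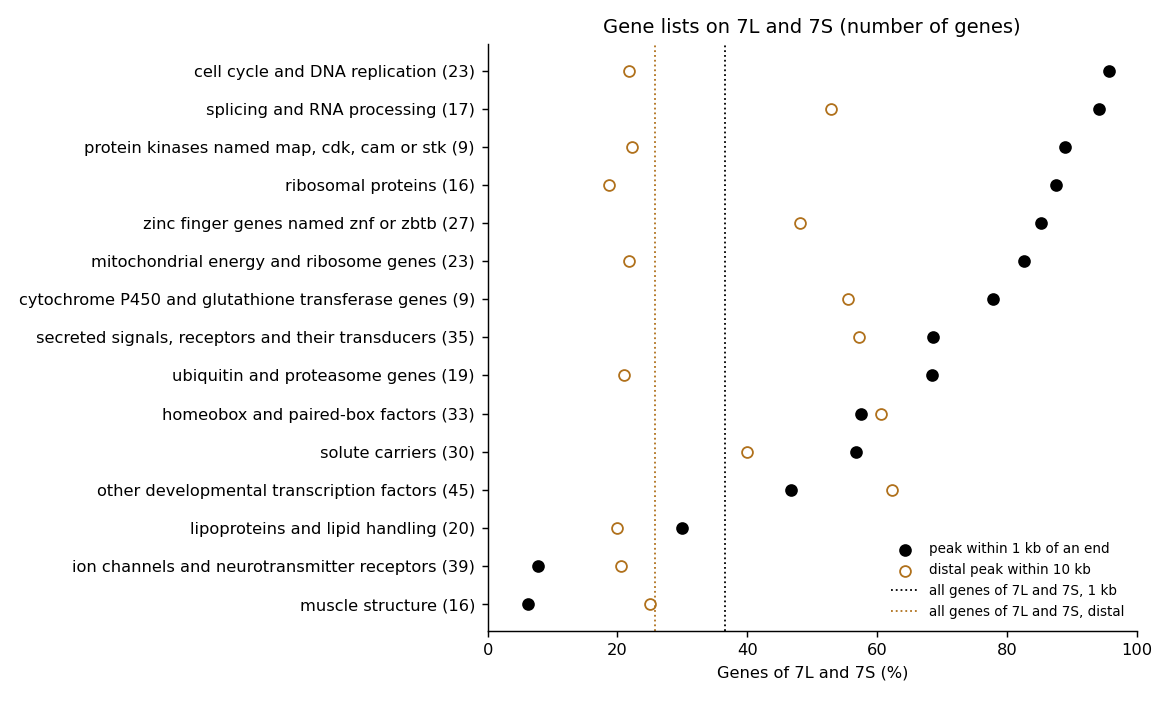
Percent of the genes of each list on 7L and 7S with a peak within 1 kb of an end (filled) or a distal peak within 10 kb (open), with the number of gene copies in brackets. Dotted lines mark all 2840 genes of the pair, LOC genes included (36.6% and 25.7%). Cell cycle and splicing genes lie above 90% for end peaks, and muscle and ion channel genes under 10%. The 2 lists of developmental transcription factors have more genes with distal than with end peaks, and neighbours in their ventx and hes5 arrays can share peaks.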

How the data were processed

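Per the study's methods and the labels, the authors aligned reads with Bowtie2 2.4.2 to genome version v10.1, discarded mapping qualities under 30, pooled the stage 9 libraries and used fragments under 130 bp for MACS2 2.2.7.1, with antibody-free CUT&RUN libraries as the control. The processing notes also list bedtools 2.30.0. The quality filter removes reads that fit 7L and 7S equally well. Peaks over small RNA and ribosomal repeats were removed by the authors. The deposited list gives each peak a score, a fold enrichment, −log10 p and −log10 q values and a summit offset. Fold is the ratio of fragments at the summit to the expected background, with a small constant added to both. The only measured columns of the list were used to describe and filter peaks.

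Fold and −log10 p were inverted to whole fragments at each summit (a solution for 99.99% of peaks). PCR without molecular identifiers makes these no count of molecules, and the depth of single libraries is unknown. Genes came from the RefSeq table of the v10.1 assembly, assigned by midpoint. Intervals are 95% (exact Poisson, exact conditional binomial for ratios, Wilson, Newcombe for differences). Python 3.11.15, numpy 2.4.6, pandas 2.3.3, scipy 1.17.1 and matplotlib 3.10.9 were used, and the counting was tested on simulated peaks. No test over samples was possible. The members, gene lists and rules were chosen with earlier results of these data known. Named genes were those nearest the 10 members of highest fold enrichment, the 8 pairs of largest excess at either copy, the 8 with most peaks at the sparser copy, those of the 3 densest 1 Mb windows and 3 longest gaps of each chromosome, and list members. Genes of single blocks, spaces between neighbouring pairs, reversed stretches and gene-rich windows were named after their values were seen. A planned search for motifs was not run, since no sequence was used here. Alternatives were other limits, peak filters, end windows, gene sets, spans and block sizes. Not every member of the gene lists is reported here by name.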

Additional observations from a re-analysis of the deposited data

How the results depend on the processing

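Under 13 alternatives, 56 of 67 recomputed values stayed within the interval of the reported one (counts of blocks within 1.5 times). Reversal was counted only where the reported interval excluded equality, which held for peaks per gene and genes per Mb, and none was found. Other values did change sign. The ratio per Mb was 0.997 with no distance limit. Pairs with an end peak at L alone minus those at S alone went to -3 with peaks at or above the median fold enrichment. With only the peaks at or above the median fold enrichment of the list, the ratio of 7L to 7S was 0.956 per Mb and 0.835 per gene, and 76.3% of homeolog pairs had the same state. With a −log10 q of at least 10 that share was 77.3%, and 6 blocks were at least 1.5 times denser on 7L and 5 on 7S. With 10 pairs in a block (44 blocks) these were 6 and 4, with 40 pairs (11 blocks) 0 and 0, and with summits within 500 bp counted as 1 there was 1 block denser on 7S. Counting only the alternatives that alter a measure, the end-peak share was lowest of its subgenome on 7L and 7S under all 9, peaks per gene were lowest on 7L under all 8, and peaks per Mb were lowest on 7L under 4 of 6 and ranked up to 3 under the others. 7S ranked from 1 to 5 of 9 per gene under its 8 alternatives and from 1 to 4 per Mb under its 6.

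No paired analysis was possible because all libraries entered 1 peak list, and leaving out single replicates was equally impossible. Windows around both gene ends count peaks at the end of transcription too. Reads that fit both subgenomes were dropped, and how many places on 7L and 7S this touches was not tested. With a median of 9 fragments at a summit, weaker regions were not detectable, and a difference of a few peaks between copies is within counting error.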

Other observations

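The gene table carries 9 protein-coding genes of the pair whose suffix goes against their chromosome, hmx2.S and c1orf174.S on 7L, and zfyve27.L, pcbd1.L, xmc.L, arcn1.L, gbp6.L, etfb.L and dyrk1a.2.L on 7S. They could not enter the homeolog comparison at these positions. hmx2.S, a homeobox gene beside hmx3.L, had 7 peaks within 10 kb, 2 of them within 1 kb, as many within 10 kb as nkx6-2.L or pax2.L had.

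dyrk1a.2.L, a kinase gene on 7S, holds the third widest member of the pair, 1920 bp at chromosome 7S:107852946 to 107854865, with 20.9-fold enrichment and 42 fragments, 13930 bp inside the gene. The second widest, 2028 bp at chromosome 7L:131358894 to 131360921, also lay deep inside a gene, LOC108696938, 14175 bp from its end, with 8.87-fold enrichment. Other wide members lay at gene ends, among them 1315 bp at erf.S, 4 bp from its end, and 1222 bp beside h2ax.L, a histone variant gene of the DNA damage response.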
